A study of Mus musculus with 2 samples.

Results

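The mouse genome holds many zinc finger protein genes that lie side by side in tandem clusters, and the H3K4me3 mark at those clusters was described in fetal male germ cells. Members were taken from the RefSeq gene table of assembly GRCm38.p6 (mm10) as autosomal protein-coding genes whose symbol is Zfp and a number, with the midpoint of another such gene within 200 kb. Zfp42, Zfp57 and Zfp445 were left out, also as neighbours. This gave 223 of 357 Zfp genes, among 20665 autosomal protein-coding genes, in 53 clusters on 14 chromosomes. The other 134 Zfp genes are called isolated here. The rule used position and name and no measured value. Closest to its limit were Zfp467 and Zfp775, at 174.9 kb from their nearest neighbour and with end folds of 4.69 and 6.98, and just outside lay Zfp433 at 202.8 kb with 8.44 and Zfp993 at 231.5 kb with no peak at an end.

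The study profiled mouse prospermatogonia, which are fetal testicular germ cells, collected at E17.5 by sorting on Oct-GFP, with 130000 cells for each assay. Oct-GFP names a fluorescent reporter of the pluripotency gene Oct4, and the labels give no strain, embryo number or reporter construct. In CUT&RUN an antibody tethers a nuclease to chromatin, and the cut fragments are sequenced. There was 1 H3K4me3 library and 1 rabbit IgG library. The H3K4me3 peak list was analysed, and no values of the IgG library itself were used here. With 1 library there was no replicate and no test between conditions, so values carry counting intervals only.

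Zinc finger genes of this kind encode DNA-binding proteins built from repeated C2H2 fingers. Many carry a KRAB domain, which recruits the corepressor Trim28 (KAP1) and the H3K9 methyltransferase Setdb1, and many of these silence transposable elements in embryonic and germ cells. The clusters grew by repeated local duplication, so neighbours can be nearly identical in sequence. H3K4me3 marks promoters that are active or held ready, and it was read here as a mark and not as expression.

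The deposited list held 135064 peaks, each with a fold enrichment, which is the summit pileup over the local background of the peak caller. Solving fold and −log10 p together gave the summit pileup in fragments, with a median of 27 over all peaks. The names of the peaks carry the letters wIgG, which may mean that the IgG library served as control when peaks were called. The labels do not say so, and whether the folds and backgrounds are relative to IgG is not known here. The labelled cell type was checked on marker lists, read as marks and not as expression. A peak within 1 kb of an annotated end was found at 74.4% of all autosomal protein-coding genes. Of 10 germ cell markers 8 had one, and Nanos2 and Nanos3 had none. The counts were 7 of 8 (87.5%) for Sertoli, 2 of 6 for Leydig and 2 of 6 for endothelial and blood markers. Gata4 of the Sertoli markers, Cyp17a1, Hsd3b1, Insl3 and Star of the Leydig markers and Cdh5, Pecam1, Csf1r and Adgre1 of the last list had no peak at an end, and the part of other cells in the results was not tested. The germ cell share was near that of all genes and below the Sertoli share, so these counts do not tell the labelled cell type from others.

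H3K4me3 was found at nearly every clustered Zfp gene. A peak overlapped the 1 kb either side of an annotated end, here called marked, in 207 of 223 members (92.8%, 95% Wilson interval 88.7 to 95.5). The same held for 74.4% of all autosomal protein-coding genes and for 123 of 134 isolated Zfp genes (91.8%, interval 85.9 to 95.4). With the members' ends moved by 100 kb, 29.6% met a peak in the direction of lower coordinates and 28.7% in that of higher ones. Clustered and isolated Zfp genes differed by 1.03 percentage points, and the interval of that difference ran from -4.44 to 7.52. Other tandem families stood lower, with 20.1% of 1104 olfactory receptor genes and 7.95% of 352 vomeronasal receptor genes marked. No test was made between these gene lists.

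Every clustered Zfp gene held at least 1 peak within 1 kb or inside. That was 223 of 223 members, against 83.5% of all genes and 132 of 134 isolated Zfp genes. Both ends were marked in 37 members (16.6%), close to the 13.6% of all genes, and 1 end alone in 170 (76.2%, against 60.9%). Among marked genes alone, a single end was marked in 170 of 207 members and in 12575 of 15385 of all genes. So a mark at a single end was about as common among marked genes in general as among marked members.

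For members whose start is listed, the marked end was mostly the start. RefSeq promoter entries gave strand and start for 193 members, and a peak lay within 1 kb of a listed start in 190 of them (98.4%, interval 95.5 to 99.5). Among all genes with an entry 73.3% were marked at a start, and among isolated Zfp genes 96 of 105 (91.4%, interval 84.5 to 95.4). Both the start and the 3′ end were marked in 33 members (17.1%), beside 14.1% of all genes. No member was marked at the 3′ end alone, and 557 of the 16457 genes were. Start fold exceeded 3′ end fold in 178 members, fell below it in 11 and equalled it in 4. Of these 4, Zfp235, Zfp626 and Zfp988 had no peak at either site, and Zfp580 had 3.06 at both. Since only 33 members had a peak at the 3′ end, most of the 178 had no peak there to compare. The same split was not computed for all genes or for isolated Zfp genes, so it is not shown to be particular to members. Zfp109, Zfp597 and Zfp948 had the highest folds at the 3′ end, with 11.6, 10.2 and 8.85, and their start folds were 7.13, 6.49 and 7.66. The 30 members without a promoter entry were marked at an end in 25 cases (83.3%).

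Peaks sat tightly over the start. At 100 bp downstream of the 5′-most listed start, 93.8% of members were covered by a peak, the maximum of their profile, whereas all genes reached 58.8% and isolated Zfp genes 81.0%. Coverage of members fell to 8.81% at 1000 bp upstream and 18.7% at 1000 bp downstream, below the 13.4% and 27.3% of all genes. For the 170 marked members with a single start, the summit lay a median of 66 bp downstream of it, against 115 bp over 9676 genes. The median width of the start peak was 1173 bp, like the 1176 bp of all marked genes.

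**Figure D1:**
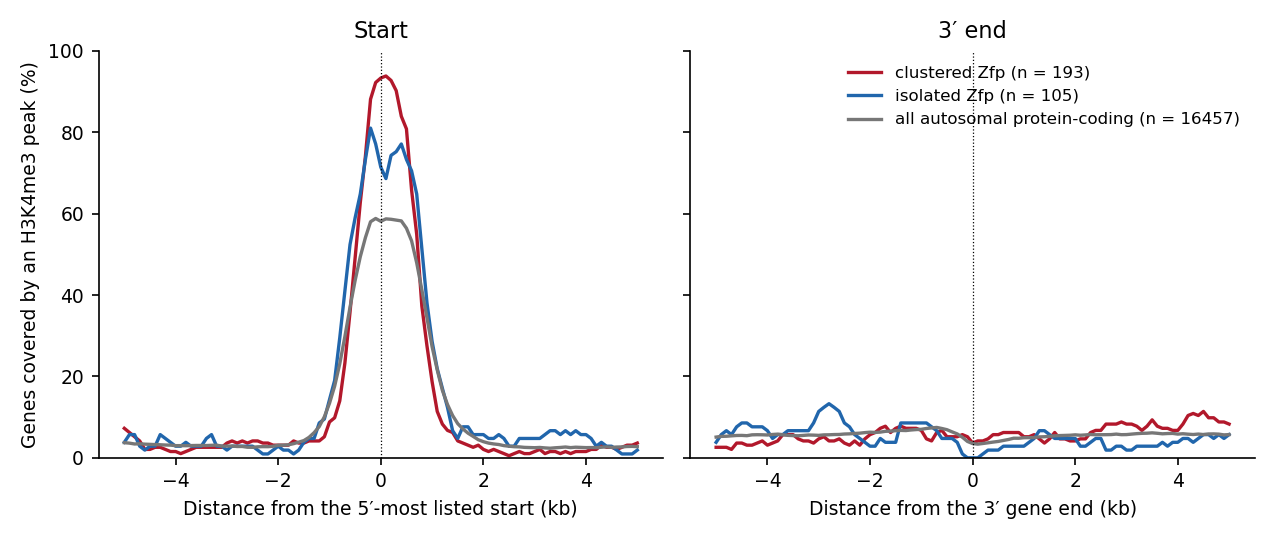
Share of genes covered by an H3K4me3 peak (%) at each distance in kb from the 5′-most listed start (left) and the 3′ gene end (right), for 193 clustered Zfp, 105 isolated Zfp and 16457 autosomal protein-coding genes. Clustered Zfp genes rise to 93.8% at the start, while at the 3′ end the lines stay low, with a maximum of 11.4% for the clustered genes.

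Folds at the members lay above those of all genes. The median highest fold at an end, with unmarked members at 0, was 6.95 (quartiles 5.45 and 8.20), against 5.96 for isolated Zfp genes and 5.46 for all genes. Of the members, 178 (79.8%) had an end fold of at least 5, against 57.1% of all genes and 66.4% of isolated Zfp genes. Members marked at a start had a median start fold of 7.17 with 45 fragments over a background of 5.59, and all genes so marked 6.13 with 42 fragments over 6.10. The higher fold went with a slightly higher pileup and a slightly lower background. With unmarked genes at 0, peaks covered a median of 1169 bp at the fuller end of a member. That was below the 1191 bp of isolated Zfp genes and above the 1052 bp over all genes.

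Zfp985 on chromosome 4, from 147553277 to 147585201, had the highest end fold, 12.2 (95% Poisson interval 10 to 14.7) with 107 fragments, in a peak of 1065 bp over its start. Zfp109 on chromosome 7 followed with 11.6 (8.53 to 15.3), at its 3′ end. Zfp9 and Zfp931 reached 10.9, with intervals of 7.62 to 15.2 and 8.62 to 13.6. Zfp345, Zfp551, Zfp53, Zfp51, Zfp72 and Zfp600 lay between 10.2 and 10.5. The intervals of these 10 genes overlapped, so their order is not resolved.

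The widest marks were not those of highest fold. Zfp263, Zfp97, Zfp444, Zfp977 and Zfp81 had the most covered sequence at an end, from 1768 bp at Zfp263 to 1729 bp at Zfp81, with folds from 4.86 at Zfp444 to 7.69 at Zfp97. At the low end of marked members were Zfp524 at 3.05 (2.23 to 4.06), Zfp579 at 3.19, Zfp768 at 3.49, Zfp260 at 3.61 and Zfp52 at 3.62. Their pileups, 40 to 44 fragments, were near the members' median of 45. Their backgrounds, 10.35 to 13.78 fragments, were well above the 5.56 of all marked members. The end peak of Zfp52 is shared with Zfp53, and the listed start of Zfp52 had a fold of 4.33.

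Several members with known targets were marked like the rest. Zfp809, which recognises the primer binding site of murine leukaemia virus, had a fold of 6.64 (4.95 to 8.74) with 49 fragments at its start. Zfp932, a repressor of endogenous retroviruses, had 8.64 (6.66 to 11.0) with 62 fragments. Zfp568, which represses a placental Igf2 promoter, had 7.17 (5.25 to 9.57) with 44 fragments. Zfp819, linked to silencing of retrotransposons, had 7.75 (5.79 to 10.2) with 50 fragments. These 4 were chosen after their values were seen, and their intervals overlapped.

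The 16 members without a peak at an annotated end all held a peak inside the gene, with highest internal folds from 3.17 to 14.94 and a median of 8.38. For 11 of them a start was listed, and 9 of those had a marked start, which lies inside the annotated extent of the gene. Zfp595 had a start fold of 10.5 (7.92 to 13.8), Zfp459 8.96, Zfp93 8.42, Zfp59 8.35 and Zfp759 8.19. Zfp708, which protects DNA methylation at a repeat class in the early embryo, had 6.99 (5.16 to 9.28), and 1 of its 2 listed starts was marked. Zfp984, Zfp790 and Zfp428 followed with 6.87, 5.54 and 4.14. Of the members without a listed start, Zfp992 held the highest internal fold, 14.9 (11.7 to 18.8) with 72 fragments. Zfp934 held one of 10.1, Zfp397 one of 6.38, Zfp446 one of 5.95 and Zfp574 one of 3.17. Taking a mark at an end or a listed start, 216 of 223 members (96.9%) were marked. This wider rule can only raise a share, and the share of all genes under it was not computed.

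Only Zfp235, Zfp626 and Zfp988 lacked a peak within 1 kb of a listed start among the 193. The nearest peak to the start of Zfp235 began 1.28 kb downstream, at 10.3 with 50 fragments. That of Zfp626 ended 1.65 kb upstream, at the annotated end of the gene, with 6.45 and 44 fragments. For Zfp988 it lay 4.76 kb downstream, with 10.02 and 35 fragments. Whether the listed start is the one used in these cells was not tested.

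The clusters held from 2 to 19 members, 26 of them only 2, and all members were marked at an end in 42 of 53 clusters. Chromosome 7 carried 78 members, chromosome 17 32 and chromosome 13 23. The largest cluster, Zfp712 to Zfp273 on chromosome 13 from 67038594 to 67827000, had 15 of 19 marked with a median fold of 6.91, the highest at Zfp455 (10.1, 7.52 to 13.4). All 4 unmarked genes there, Zfp708, Zfp759, Zfp595 and Zfp459, had a marked start. In the cluster Zfp677 to Zfp946 on chromosome 17, 18 of 18 were marked with a median of 7.18, from 3.62 at Zfp52 to 10.4 at Zfp53. The chromosome 7 cluster Zfp84 to Zfp146 had 14 of 15 marked with a median of 5.76, led by Zfp82 at 9.88. Also on chromosome 7, Zfp180 to Zfp94 had 8 of 10 marked with a median of 6.58, led by Zfp109, while Zfp235 and Zfp93 had no peak at an end.

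Median fold varied between clusters from 1.95, in the pair Zfp574 and Zfp526, to 10.1, in the pair Zfp968 and Zfp965. Among clusters of 8 or more members the lowest median was 4.94, at Zfp553 to Zfp629 on chromosome 7, where 12 other protein-coding genes lie inside the span. The members with another protein-coding gene end within 5 kb had a median end fold of 6.02, and the 136 without one 7.29. Their shares marked at a start were 98.7% and 98.3%. Inner members of clusters of 3 or more were marked at an end in 107 of 117 cases and edge members in 52 of 54, with median folds of 6.91 and 7.17. Where the nearest member was under 25 kb away the median fold was 6.39, and 7.22 at 50 kb or more. Other protein-coding genes inside the clusters were marked in 65 of 75 cases (86.7%), against 74.4% of all autosomal protein-coding genes. They were told apart by symbol alone, so zinc finger genes under other names were not removed.

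**Figure D2:**
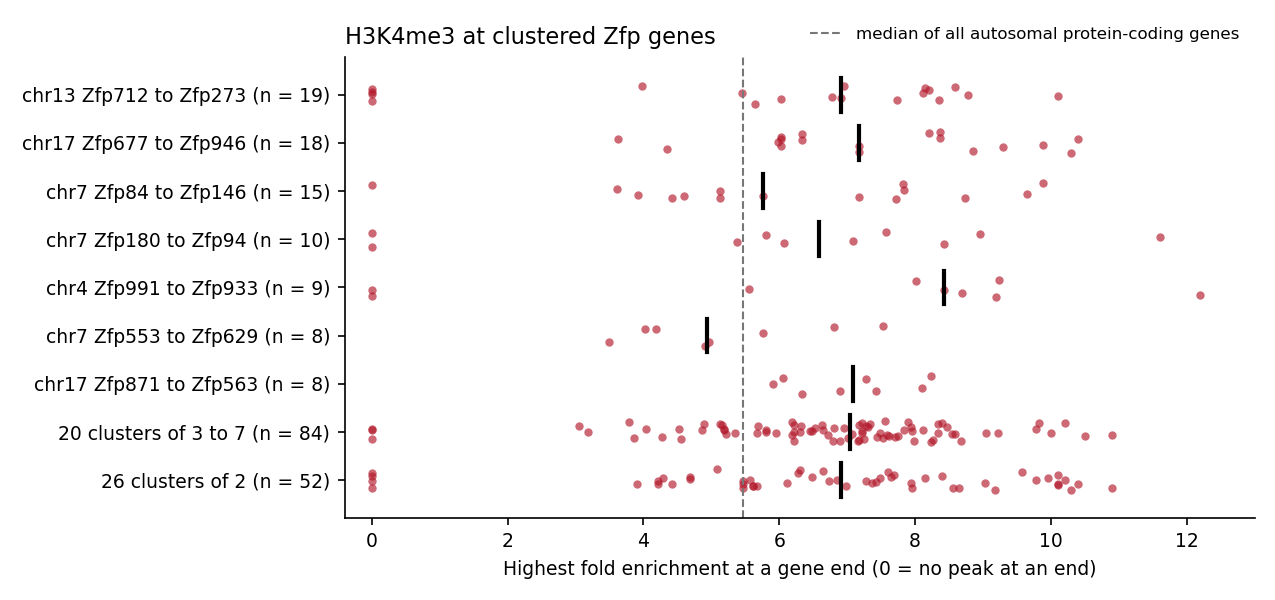
Highest fold enrichment at a gene end for each of the 223 members (points, 0 where no peak lies at an end), in rows for the 7 clusters of 8 or more, the 20 of 3 to 7 and the 26 of 2, with the median as a black bar and the median of all autosomal protein-coding genes, 5.46, as a dashed line. All clusters of 8 or more lie above that line by their median except Zfp553 to Zfp629 on chromosome 7 at 4.94.

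Some members shared a peak with another member. Peaks shared with other protein-coding genes were not counted, and no share over all genes was computed. Of 295 peaks at member ends, 12 reached the ends of 2 members, and 16 members took part. Zfp646 and Zfp668 on chromosome 7 shared a 2403 bp peak of 48 fragments, at a fold of 5.46. Zfp28 and Zfp78 shared one of 1361 bp and 46 fragments, at 7.22, and Zfp398 and Zfp786 one of 1025 bp and 39 fragments, at 6.22. For 13 members the highest end peak was a shared one.

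The highest pileups at annotated ends lay in the Zfp991 to Zfp933 cluster on chromosome 4. Zfp985 had 107 fragments, Zfp982 102, Zfp991 89 and Zfp978 85, and Zfp984, with no peak at an end, had 95 at its listed start. The local backgrounds of these peaks were also high, at 7.87, 11.87, 9.35, 14.46 and 12.97 fragments in that order. The median background of marked members was 5.56. The folds of these peaks were 12.2, 8.01, 8.69, 5.56 and 6.87, so high pileup did not always go with high fold. The median end pileup was 64 over the 9 members of this cluster, 72 over the 3 of Zfp972 to Zfp931 on chromosome 2, 68 over the pair Zfp960 and Zfp97 on chromosome 17 and 45 over all members. Of the 8 members with at least 70 fragments at an annotated end, 5 were on chromosome 4 and 2, Zfp931 with 77 and Zfp972 with 72, on chromosome 2, which was 3.59% of members against 0.256% of all genes. This threshold was chosen after the values were seen. Promoters on these chromosomes were also in part near copies of each other. Repeated sequence was not filtered out, and its part in these pileups was not tested. Around this cluster, with 10 kb added either side, 13 peaks lay at a member's end or listed start and 59 elsewhere, with median widths of 812 and 333 bp. At the chromosome 17 cluster Zfp677 to Zfp946 the counts were 27 and 45, with widths of 1073 and 499 bp.

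**Figure D3:**
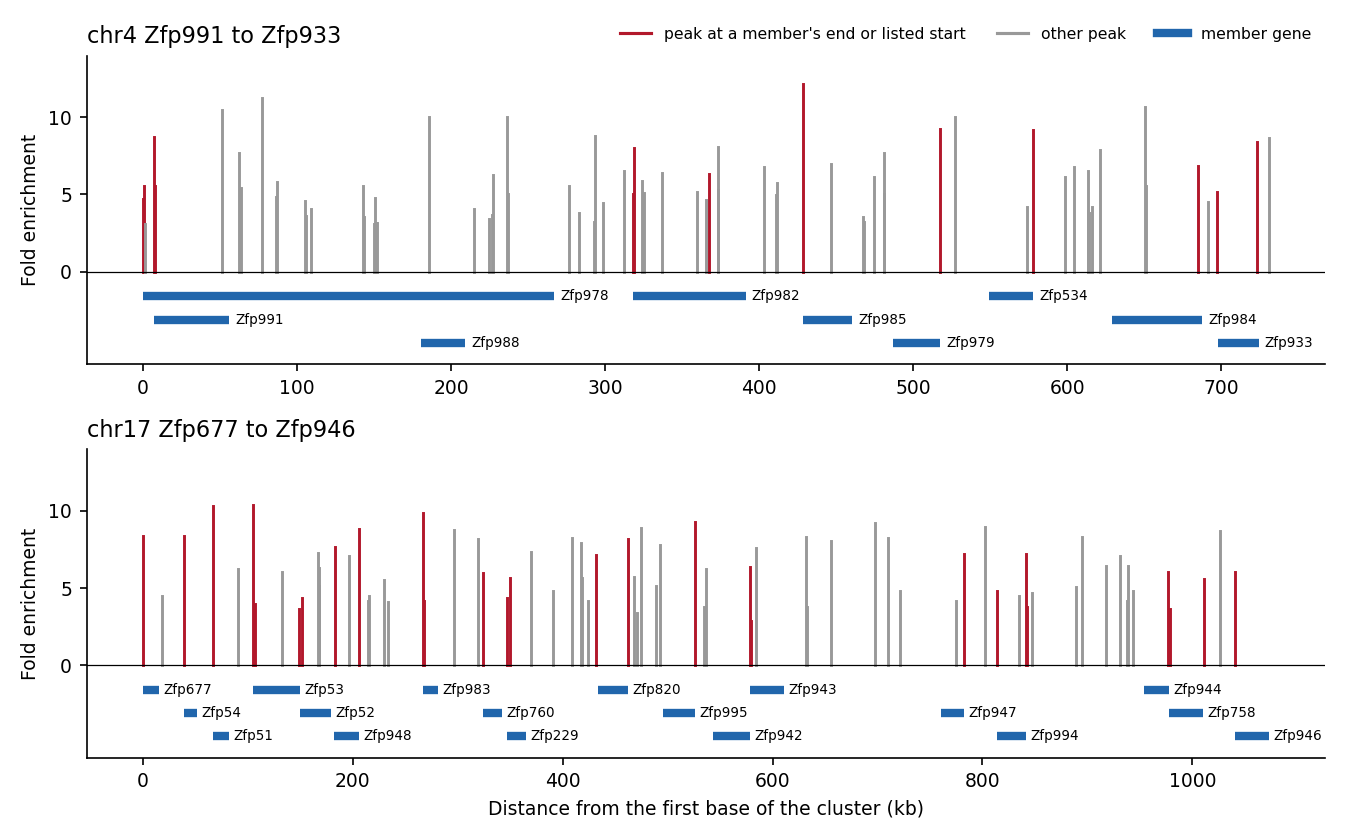
Peaks (vertical lines, height the fold enrichment at the summit) and member genes (blue bars) along 2 clusters, by distance in kb from the first base of the cluster, with peaks at a member's end or listed start in red and others in grey. Zfp988 has no red line of its own, and the highest line, 12.2, is at the start of Zfp985.

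Clustered Zfp promoters mostly held intermediate numbers of CG dinucleotides. CG-rich promoters carry H3K4me3 in most cell types, since CG-binding proteins bring the methyltransferases there. In the 300 bases from 250 before to 50 after the 5′-most start, members had a median of 11 CG (quartiles 7 and 17), against 17 (9 and 25) for isolated Zfp genes and 14 (4 and 25) for all genes. Under 5 CG were found in 8.81% of members and 28.1% of all genes, and 20 or more in 20.7% and 37.4%. GC content was 53.3%, 58.7% and 56.7%. CG was counted at the 5′-most start, whereas marks and start folds set against it are the highest over all listed starts. Of 17 members with under 5 CG, 14 were marked at a start (82.4%, interval 59.0 to 93.8), against 21.9% of 4627 genes of that class and 5 of 10 isolated Zfp genes. With 5 to 9 CG the counts were 60 of 60 members, 16 of 18 isolated Zfp genes and 68.3% of 2185 genes. Among these 60, Zfp708 was marked only at its other listed start, and not at the 5′-most one whose CG was counted. With 10 to 19 CG, 76 of 76 members and 98.2% of all genes were marked, and with 20 or more, 40 of 40 and 99.6%. The shares of members and of all genes stood apart in the 2 lower classes. No test was made between lists.

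Among members, start fold was lower where CG number was higher. Median start fold was 8.59 in members with under 5 CG, 7.79 with 5 to 9, 7.20 with 10 to 19 and 6.10 with 20 or more, with unmarked members at 0, while median pileup ranged from 40 to 46 fragments. Across the 190 marked members Spearman's rho between CG number and start fold was -0.40 and Pearson's r -0.39. With unmarked members at 0 these were -0.33 and -0.27. Across all 12063 marked genes they were -0.23 and -0.24, but across all 16457 genes with a listed start, unmarked genes at 0, they were 0.43 and 0.45. The median start fold of all genes was 0 with under 5 CG, 5.46 with 5 to 9, 6.33 with 10 to 19 and 5.85 with 20 or more. Genes are not independent replicates, and duplicated promoters count more than once here, so these are descriptions. The median covered length at the start of members moved the other way, from 816 bp in the lowest class to 1347 bp in the highest. It did so over all genes too, from 0 to 1466 bp, with unmarked genes at 0. Spearman's rho between CG number and covered length was 0.30 in members and 0.71 in all genes.

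**Figure D4:**
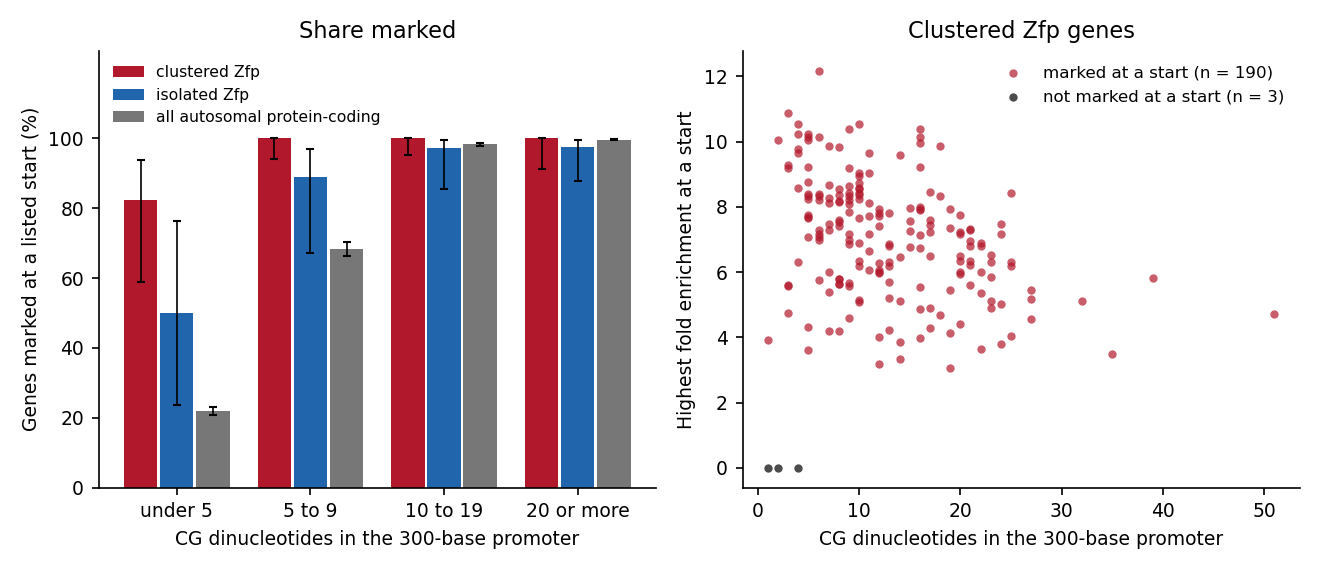
Left, share of genes marked at a listed start (%, with 95% Wilson intervals) by number of CG dinucleotides in the 300-base promoter, for clustered Zfp, isolated Zfp and all autosomal protein-coding genes. Right, highest fold over the listed starts of the 193 clustered Zfp genes against CG number at the 5′-most start. Under 5 CG the bars stand at 82.4% for clustered Zfp and 21.9% for all genes. The 3 members unmarked at every listed start have fewer than 5 CG.

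The promoters of Zfp931, Zfp382 and Zfp235 show this range, and were chosen after their values were seen. They are the 250 bases before the start from the RefSeq table of GRCm38.p6, written 5′ to 3′ on the strand of the gene, with CG in capitals. Zfp931 (chr2:178078426-178078675, minus strand) has 2 CG in this stretch and a start fold of 10.9 with 77 fragments. Zfp382 (chr7:30121682-30121931, plus strand) has 25 CG and a start fold of 5.12 (3.59 to 7.10) with 34 fragments, in a peak that covers the whole stretch. Zfp235 (chr7:24132122-24132371, plus strand) has 0 CG and no peak within 1 kb of its start.
Zfp931: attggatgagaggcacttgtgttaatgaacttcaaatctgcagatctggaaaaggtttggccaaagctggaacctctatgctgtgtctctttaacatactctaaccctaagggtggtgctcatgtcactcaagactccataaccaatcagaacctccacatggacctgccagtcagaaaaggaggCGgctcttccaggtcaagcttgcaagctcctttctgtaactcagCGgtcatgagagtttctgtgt
Zfp382: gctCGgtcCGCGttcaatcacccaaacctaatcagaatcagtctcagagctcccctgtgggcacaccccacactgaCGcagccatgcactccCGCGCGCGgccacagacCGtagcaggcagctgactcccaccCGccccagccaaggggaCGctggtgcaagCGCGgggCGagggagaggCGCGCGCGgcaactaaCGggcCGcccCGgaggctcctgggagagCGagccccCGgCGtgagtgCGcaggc
Zfp235: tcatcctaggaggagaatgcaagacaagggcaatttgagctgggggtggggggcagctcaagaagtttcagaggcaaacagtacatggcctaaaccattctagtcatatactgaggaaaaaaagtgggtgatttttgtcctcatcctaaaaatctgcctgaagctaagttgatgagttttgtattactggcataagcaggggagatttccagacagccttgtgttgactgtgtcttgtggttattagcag

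Some promoters of members were near copies. Over the 300 bases, 44 pairs of members were at least 80% identical, 15 within a cluster and 29 between clusters of the same chromosome, and 30 members took part. The median identity was 53.7% for pairs within a cluster and 52.3% for pairs of different clusters. Zfp968 (chr2:175372186-175372435) and Zfp973 (chr2:176670272-176670521), both on the plus strand of chromosome 2, were 99.7% identical. Their start folds were 10.1 (7.37 to 13.4) with 44 fragments and 7.65 (5.34 to 10.7) with 33 fragments, and the intervals overlapped. Zfp988 (chr4:147305354-147305603, plus strand) and Zfp534 (chr4:147702632-147702881, minus strand) were 93.3% identical. Zfp534 had a start fold of 9.19 (6.68 to 12.3) with 42 fragments, and Zfp988 had no peak within 1 kb of its start. Both pairs are shown with CG in capitals, since near-equal sequence went with overlapping intervals in the first and with a peak at only 1 of the starts in the second. How reads from near-equal sequence were placed is not known here. Its part in the folds and missing peaks of near copies was not tested.
Zfp968: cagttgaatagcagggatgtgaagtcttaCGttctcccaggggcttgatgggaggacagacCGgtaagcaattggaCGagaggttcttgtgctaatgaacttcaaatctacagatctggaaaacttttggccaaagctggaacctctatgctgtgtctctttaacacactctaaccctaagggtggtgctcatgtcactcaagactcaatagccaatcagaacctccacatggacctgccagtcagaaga
Zfp973: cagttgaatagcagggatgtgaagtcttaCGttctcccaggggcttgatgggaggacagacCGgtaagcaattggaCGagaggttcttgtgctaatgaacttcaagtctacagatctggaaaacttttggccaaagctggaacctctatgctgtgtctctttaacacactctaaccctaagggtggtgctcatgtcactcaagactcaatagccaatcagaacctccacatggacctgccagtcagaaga
Zfp988: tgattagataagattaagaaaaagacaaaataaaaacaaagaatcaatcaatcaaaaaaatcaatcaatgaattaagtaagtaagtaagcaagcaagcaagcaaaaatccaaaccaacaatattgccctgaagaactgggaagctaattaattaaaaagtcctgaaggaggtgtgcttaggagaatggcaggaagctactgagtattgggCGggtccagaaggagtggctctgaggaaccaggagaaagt
Zfp534: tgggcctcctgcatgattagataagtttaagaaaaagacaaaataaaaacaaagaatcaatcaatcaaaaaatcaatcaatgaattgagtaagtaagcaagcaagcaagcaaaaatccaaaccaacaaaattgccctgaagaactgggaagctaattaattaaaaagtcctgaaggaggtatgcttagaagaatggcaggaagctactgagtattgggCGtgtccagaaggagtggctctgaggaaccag

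Within a cluster, pairs at least 80% identical differed in start fold by a median of 1.46, and the other pairs by 1.61. Short motifs were counted in the 300-base promoters on both strands. CCAAT, the CCAAT box, was in 55.4% of member promoters, 41.0% of isolated Zfp promoters and 39.1% of all promoters. GGGCGG, the Sp1 box, was in 38.3%, 53.3% and 47.3%, and TATAAA, the TATA box, in 4.15%, 8.57% and 13.5%. CCGGAAGT, an ETS site, was in 9.84%, 10.5% and 5.44%, and GCATGCGC, part of the NRF1 site, in 6.22%, 2.86% and 3.66%. AAGATGGC, part of the YY1 site, was in 4.66%, 7.62% and 3.21%, and CACGTG, the E-box, in 8.29%, 7.62% and 7.97%. Thus the ETS and YY1 strings were at least as frequent in isolated as in clustered Zfp promoters. The E2F sequences TTTCCCGC and GGCGGGAA, the second of which can share letters with GGGCGG, were in 1.55% and 1.04% of member promoters, 2.86% and 5.71% of isolated Zfp promoters and 1.48% and 2.95% of all. The median start fold of members was 7.43 with CCAAT and 6.34 without, 7.62 and 7.13 for the NRF1 string and 7.18 and 7.13 for the E-box. It was lower with the string for the other 6, at 6.43 and 7.28 for GGGCGG, 6.16 and 7.17 for TATAAA, 6.89 and 7.17 for the ETS string, 5.18 and 7.18 for the YY1 string, and 5.98 and 5.20 with the E2F strings against 7.17 without each. Member promoters with the string numbered 107 for CCAAT, 74 for GGGCGG, 19 for ETS, 16 for the E-box and 12 for NRF1. They numbered only 9 for YY1, 8 for TATAAA, and 3 and 2 for the E2F strings, so those medians rest on few genes. A match describes letters in this window and not binding.

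A list of 20 genes covered the Trim28 corepressor machinery, the HUSH complex and linked heterochromatin factors. Of these 20 genes, 19 were marked at an end, against 74.4% of all genes. With unmarked genes at 0, their median end fold was 5.51, against 5.46 for all genes, of which a larger share is unmarked. Over all marked genes alone the median was 6.18. Trim28, the corepressor that binds KRAB domains, had 4.54 (3.35 to 6.02) with 46 fragments. Setdb1, the H3K9 methyltransferase it recruits, was highest at 8.12 (6.17 to 10.5) with 56 fragments, and its partner Atf7ip had 7.84 (5.41 to 11.0). The HP1 genes Cbx1, Cbx3 and Cbx5, whose products bind methylated H3K9, had 5.35, 4.57 and 6.01. Of the HUSH complex, which silences transposons, Mphosph8 had 6.57, Pphln1 5.14 and the linked ATPase gene Morc2a 5.68, while Tasor had no peak at an end but was marked at a listed start. The H3K9 methyltransferase genes Ehmt1 and Ehmt2 had 5.03 and 7.45, and the deacetylase genes Hdac1 and Hdac2 6.67 and 6.08. Chd4, of the NuRD remodelling complex, had 6.34, and its relative Chd3 was lowest at 3.10 (2.08 to 4.46), with 4 internal peaks. Morc3, Smarcad1, Uhrf1 and Smchd1, further chromatin factors, lay between 4.38 and 5.68.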

How the data were processed

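The submitters' processing notes name the builds mm10 and sacCer3 and the tools MACS2 2.1.0, Bowtie2 2.5.0, Trim Galore, deepTools 3.5.1, bedtools 2.27.1 and SAMtools 1.16.1. What each did, and with which settings, was not given in the sources used here. For the H3K4me3 library the authors deposited 1 peak list, with a fold ratio at each summit, a −log10 p, a −log10 q and a score. These deposited values describe single peaks within this list. The score was not used further.

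Pileup and background were solved from the fold, read as (pileup + 1)/(background + 1), and the p, read as a Poisson upper tail, for 135053 of 135064 peaks within 0.0001 of the −log10 p. Gene ends came from the RefSeq gene table without strand, and starts from RefSeq promoter entries, which matched 193 of 223 members. Pairs of promoters were aligned globally, and identity is identical bases over 300. Shares have 95% Wilson intervals and folds exact Poisson intervals of the summit pileup, which cover counting error only. The background was held fixed in the fold intervals, so its own counting error is left out. The interval of the difference in shares combines both Wilson intervals. Total depth is unknown.

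Members and lists were chosen with earlier results of these data known. Genes named were the 10 members of highest end fold, the 5 of highest pileup, of most covered bases and of lowest fold, all without a peak at an end, the extremes of the 5 largest clusters, the corepressor list and the genes nearest the 200 kb limit. Other genes were named after their values were seen. Protein sequences were not used here, so fingers and KRAB domains planned for counting were not counted. In simulated data 200 peaks were planted among 20665 genes, each at the end of a gene standing apart from its neighbours. All 200 were called, with 0 extra. Peaks placed in this way meet the rule by design, so the result checks the counting only. Crowded ends were not simulated, although 87 of 223 members have a neighbour's end within 5 kb. How well marks are assigned there was not tested. Scripts ran in Python 3.11.15 with Biopython 1.88, scipy 1.17.1, pandas 2.3.3, matplotlib 3.10.9 and numpy 2.4.6.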

Additional observations from a re-analysis of the deposited data

How the results depend on the processing

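Of 49 alternative values, 40 stayed within the 95% interval of the reported one and 9 did not. With windows of 2500 bp either side, 97.3% of clustered Zfp genes were marked at an end and 99.5% of those with a listed start at a start, and the median covered length was 1309 bp. With windows of 500 bp that length was 835 bp, as the window itself bounds it. With only peaks at 5-fold or more, 79.8% were marked at an end and 84.5% at a start, against 57.1% and 56.2% of all genes, the covered length was 1092 bp, and clustered genes exceeded isolated ones by 13.40 percentage points. Without members that have another protein-coding gene end within 5 kb, the median end fold was 7.29. The difference between clustered and isolated Zfp genes changed sign with the neighbour distance, to -0.11 points at 100 kb and -1.82 at 500 kb, inside its interval of -4.44 to 7.52. Of the alternatives, 4 were chosen after seeing the data: the 5′-most start alone gave 97.9% marked at a start, clusters of 3 or more members gave 93.0% marked and a median fold of 6.95, and members with a listed start gave 94.3% marked at an end. No paired analysis was possible because there was 1 library. Without replicates or IgG values, the spread between libraries cannot be given.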
